A study of Mus musculus with 7 samples.

Results

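The SR proteins are a family of splicing factors whose genes are named Srsf in the mouse. The members described here were taken by symbol alone, as Srsf1, Srsf2, Srsf3, Srsf4, Srsf5, Srsf6, Srsf7, Srsf9, Srsf10 and Srsf11, which are 10 of the 22556 genes in the expression table. All 10 passed the filter of a mean of at least 1 RPM (read pairs scaled to the library's total on genes), as did 13599 genes in all. RNA was measured by ChrRNA-seq, which sequences RNA held in the chromatin fraction and so is rich in nascent and incompletely spliced transcripts. The cells were C7H8 iXist-ChrX_Cast cells, 1 clone of female (XX) mouse embryonic stem (mES) cells from a cross of Cast and 129S mice, in which a TetOn promoter replaces that of Xist on the Cast X chromosome. They were grown on inactivated fibroblast feeders. The question was what happens to RNA in these cells under STM2457, an inhibitor of the enzyme METTL3, which writes m6A on RNA.

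A total of 7 libraries were used, and all came from cells given doxycycline (Dox) for 24 h to induce Xist. The control group was treated with DMSO for 6 h and then with DMSO and Dox (3 libraries, replicates 1, 2 and 3). The inhibitor groups were treated with STM2457 for 6 h and then with STM2457 and Dox, at 10 µM (2 libraries, replicates 1 and 2), 20 µM (1 library) or 30 µM (1 library). No library came from cells without Dox, so no value below shows a response to Xist induction. None of the 10 members lies on the X chromosome. Whether the libraries of a group came from separate cultures was stated only in general terms for the study, so p-values measure the spread between these libraries.

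SR proteins bind pre-mRNA through RNA recognition motifs and contact other splicing factors through a domain rich in arginine and serine. Bound to exonic enhancers, they help U1 and U2 small nuclear ribonucleoproteins to find the splice sites of an exon. Kinases of the CLK and SRPK families phosphorylate that domain, which sets where the proteins lie in the nucleus and how they act. Many SR genes limit their own output by splicing in a poison exon or by retaining an intron, which yields an RNA that is removed by nonsense-mediated decay (NMD) or stays in the nucleus. The nuclear m6A reader YTHDC1 is known to bind SRSF3 and SRSF10, which links the family to the mark that METTL3 makes.

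Promoters are shown first, for the members that carry the main pattern. Srsf1, Srsf2 and Srsf7 had the largest differences between DMSO libraries in the downward direction, and Srsf11 was the member that differed the other way. Each line holds the 250 bases upstream of a RefSeq start site (GRCm38.p6), 5′ to 3′ on the strand of the gene. The regions are chr11:88047123-88047372 on the plus strand for Srsf1 and, on the minus strand, chr11:116853095-116853344 for Srsf2, chr17:80207306-80207555 for Srsf7 and chr3:158036607-158036856 for Srsf11. Capitals mark matches, on either strand, to the motifs named after the sequences.
Srsf1: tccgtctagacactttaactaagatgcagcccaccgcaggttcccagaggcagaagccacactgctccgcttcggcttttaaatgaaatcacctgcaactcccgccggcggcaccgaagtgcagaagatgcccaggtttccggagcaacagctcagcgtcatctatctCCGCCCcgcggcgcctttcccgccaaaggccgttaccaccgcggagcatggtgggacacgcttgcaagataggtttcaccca
Srsf2: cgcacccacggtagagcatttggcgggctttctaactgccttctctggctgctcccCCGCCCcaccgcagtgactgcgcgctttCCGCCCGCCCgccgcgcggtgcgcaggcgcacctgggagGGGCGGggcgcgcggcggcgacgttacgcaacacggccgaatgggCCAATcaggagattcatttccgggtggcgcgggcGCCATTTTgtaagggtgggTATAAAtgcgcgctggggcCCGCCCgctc
Srsf7: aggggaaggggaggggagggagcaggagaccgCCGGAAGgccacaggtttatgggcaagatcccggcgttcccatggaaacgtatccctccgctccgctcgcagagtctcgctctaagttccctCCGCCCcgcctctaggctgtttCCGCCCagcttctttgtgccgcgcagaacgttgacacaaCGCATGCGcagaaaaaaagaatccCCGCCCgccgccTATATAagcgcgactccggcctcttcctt
Srsf11: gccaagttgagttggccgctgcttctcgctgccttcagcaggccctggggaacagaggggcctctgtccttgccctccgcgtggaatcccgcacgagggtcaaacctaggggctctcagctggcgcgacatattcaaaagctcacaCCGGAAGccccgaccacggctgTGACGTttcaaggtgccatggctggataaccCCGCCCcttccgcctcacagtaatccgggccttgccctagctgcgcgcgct

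The motifs searched on both strands were CCAAT (bound by NF-Y), TATANA (a match to the core that TBP binds, where N is any base), CCGGAAG (an ETS core), TGACGT (a CRE core), GCATGCG (an NRF1 core), GGGCGG (a GC box) and GCCATNTT (a YY1 core). Overlapping matches were allowed. The GC box was present upstream of 9 of the 10 members, all but Srsf3, and in 32.7% of 32851 mouse promoter windows of the same length. The members' windows held 56.8% to 78% G or C, above the median of 52.4% over those promoters. The shares given here are not matched for base composition. The ETS core was found in 4 members (Srsf4, Srsf5, Srsf7 and Srsf11; 6.91% of promoters) and the CRE core in 3 (Srsf3, Srsf6 and Srsf11; 6.47%). TATANA was found in Srsf2 and Srsf7, at position -29 from the start site in both, and in Srsf3 at -18 (22.6% of promoters). CCAAT was found in Srsf2, Srsf3 and Srsf10 (33.8% of promoters), the YY1 core in Srsf2 alone (3.91%) and the NRF1 core in Srsf7 alone (3.02%), where 2 overlapping matches form a palindrome. Srsf1 held a single match of any kind, a GC box at -82. These are matches of letters and show neither binding nor its absence.

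Annotation of the members in mm10 differed most in gene length. Counted spans ran from 3.20 kb for Srsf2 (chromosome 11, 116849897 to 116853094, minus strand) to 28.1 kb for Srsf4 (chromosome 4, 131873639 to 131901725, plus strand). Exons took up 92.6% of the Srsf2 span and 12.7% of the Srsf4 span, so that for ChrRNA-seq reads counted over exons and introns the members differed in how much of their signal can come from introns. In GENCODE M21, 9 of the 10 members had a transcript annotated as an NMD target, all but Srsf10, against 28.9% of 12472 tested protein-coding genes. A retained-intron transcript was annotated for 8 of 10 members, all but Srsf9 and Srsf10, against 59.4% of those genes. Exons of NMD transcripts that overlap no exon of a protein-coding transcript included a 456-base exon of Srsf3 (chromosome 17, 29039454 to 29039909) and a 460-base exon of Srsf7 (chromosome 17, 80204622 to 80205081). Other transcript types were not compared. The expression table gives a single value per gene, so the use of these exons was not measured.

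The density of GGAC, the most frequent core of m6A motifs, was taken in the longest annotated coding transcript of each gene as a feature of sequence. Srsf9 had 10.3 GGAC per kb, more than 99.4% of the tested coding genes, whose median was 4.13 per kb. Srsf5 (5.10 per kb) and Srsf4 (4.87 per kb) also lay above that median. The other 7 members lay below it, down to 1.15 per kb in Srsf3. The YTHDC1 partners, Srsf3 and Srsf10 (2.13 per kb), were both among them. Methylation itself was not measured in these files.

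RNA from the 10 genes made up between 0.182% and 0.299% of read pairs on genes. Per kb of counted span, which allows levels to be compared between genes, the order of the means over the 7 libraries was Srsf5 (121 RPM per kb), Srsf1 (60.1), Srsf2 (39.5), Srsf6 (26.6), Srsf7 (24.5), Srsf10 (22.9), Srsf3 (22.4), Srsf11 (8.19), Srsf4 (7.96) and Srsf9 (1.67). Among the 3 DMSO libraries Srsf5 had 128 ± 25.5 RPM per kb and Srsf1 58.1 ± 22.0 (mean ± SD, n = 3). The 4 genes in the middle of the order, Srsf6 (27.2 ± 4.15 RPM per kb in DMSO), Srsf7 (25.0 ± 6.98), Srsf3 (24.0 ± 2.45) and Srsf10 (23.2 ± 0.575), differed from their neighbours by less than the spread between libraries. The same held for the means of Srsf11 (8.15 ± 1.76) and Srsf4 (8.52 ± 0.193), but their order within a library was not constant. In DMSO replicates 1 and 2 and the 10 µM libraries, Srsf4 was above Srsf11 (8.65, 8.61, 8.76 and 8.71 against 6.67, 7.67, 6.20 and 7.12). In DMSO replicate 3, 20 µM and 30 µM, Srsf4 was below Srsf11 (8.30, 5.77 and 6.90 against 10.1, 10.2 and 9.31). A level per kb of span mixes exon and intron reads in proportions that differ between the genes.

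The libraries differed in depth and in overall composition, which bears on every value below. Depth ran from 9300549 read pairs on genes at 20 µM to 28030180 in DMSO replicate 2. Principal component 1 of 12976 autosomal genes, with all listed genes left out, held 78.8% of the variance and placed 4 libraries on one side (DMSO replicates 1 and 2 and both 10 µM libraries, called set 1) and 3 on the other (DMSO replicate 3, 20 µM and 30 µM, set 2). The labels name no such sets. A group of 5 genes (Lars2, Cmss1, Gphn, Cdk8 and Camk1d) took 0.212% to 0.237% of read pairs in set 1 and 1.16% (DMSO replicate 3), 8.92% (20 µM) and 0.700% (30 µM) in set 2. Of 10 mES markers 9 were detected, with a summed level of 1751 to 2123 RPM over the libraries. Sox2 was listed at 0 in all 7, and since it lies inside Sox2ot on the same strand, this 0 does not show that its RNA was absent. Klf4 had 56.0 to 70.5 RPM in set 1 and 23.4 to 38.0 RPM in set 2. Tfcp2l1 was likewise lower in set 2 (382 to 455 RPM in set 1 and 251 to 308 RPM in set 2). Dppa4 (51.5 to 73.8 and 80.6 to 109 RPM) and Sall4 (41.2 to 54.6 and 61.1 to 82.8 RPM) were higher in set 2. Of 14 feeder fibroblast markers Fn1 had 869 to 1148 RPM in set 1 and 423 to 603 RPM in set 2. The other 13 summed to 12.9 to 18.4 RPM in set 1 and 13.6 to 15.9 RPM in set 2, but single markers moved in opposite directions. Col6a1 had 4.53 to 10.7 RPM in set 1 and 0.186 to 0.257 RPM in set 2, and Col5a2 had 1.49 to 2.53 RPM in set 1 and 6.38 to 7.53 RPM in set 2. Lum was listed at 0 in 6 of 7 libraries and Col1a1 and Col3a1 stayed under 1 RPM. What part the library composition had in the members' values was not tested. Mettl3 RNA was at 41.2, 39.1 and 30.3 RPM in the DMSO libraries in order of replicate, 40.2 and 42.6 RPM at 10 µM, 22.6 RPM at 20 µM and 27.3 RPM at 30 µM, which is no check of an inhibitor that acts on the protein.

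**Figure D1:**
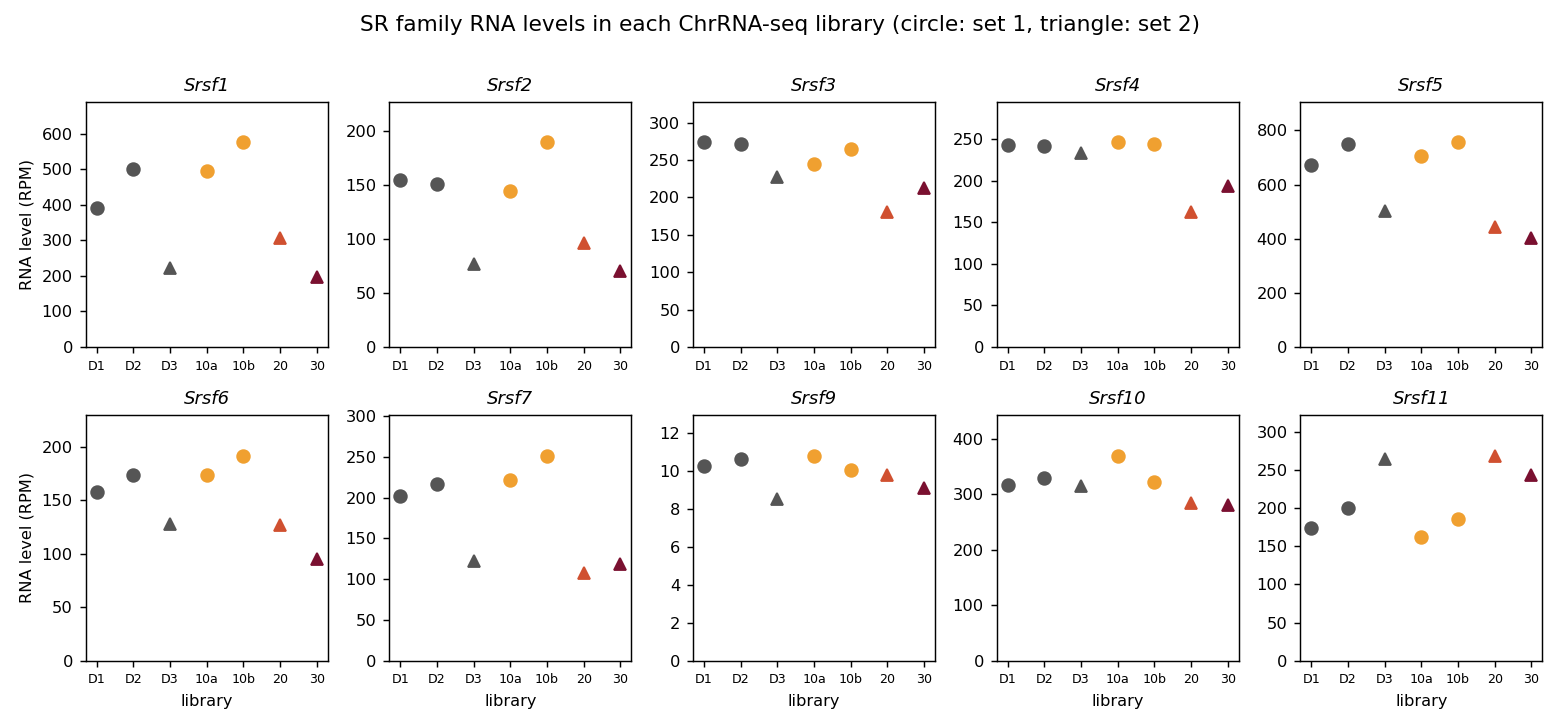
RNA level in RPM (vertical axis, from 0) of each of the 10 SR family genes in each library (horizontal axis: D1 to D3, DMSO replicates 1 to 3 in grey; 10a and 10b, 10 µM replicates 1 and 2; 20 and 30, the single libraries at 20 µM and 30 µM). Circles are set 1 and triangles set 2, and in RPM 9 genes have all triangles below all circles (39.8% of tested genes; 5 genes with TMM factors, 30.1%) while Srsf11 has all triangles above (18.7%; 28.3% with TMM factors).

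Srsf1 and Srsf2, the classical activators that bind exonic enhancers, varied most between libraries. For Srsf1 the values in the DMSO libraries, in order of replicate, were 392, 499.9 and 221 RPM (mean 371 ± 140 RPM, SD, n = 3), 494 and 575 RPM at 10 µM (535 ± 57.7 RPM, n = 2), 307 RPM at 20 µM and 198 RPM at 30 µM. Srsf2 levels were 155, 151 and 77.1 RPM in DMSO (128 ± 44.0 RPM, n = 3), 144 and 189 RPM at 10 µM (167 ± 31.9 RPM, n = 2), 96.3 RPM at 20 µM and 70.8 RPM at 30 µM. For both genes the 3 libraries of set 2 were low and the 4 of set 1 high, and the 10 µM values overlapped those of DMSO.

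Srsf3 and Srsf7 encode short SR proteins that also act as adaptors for mRNA export. Srsf3 levels were 274, 272 and 227 RPM in DMSO (258 ± 26.3 RPM, n = 3), 245 and 265 RPM at 10 µM (255 ± 13.7 RPM, n = 2), 181 RPM at 20 µM and 213 RPM at 30 µM. Srsf7 levels were 202, 217 and 123 RPM in DMSO (180.4 ± 50.4 RPM, n = 3), 222 and 251 RPM at 10 µM (236 ± 20.5 RPM, n = 2), 108 RPM at 20 µM and 118 RPM at 30 µM. In RPM the set 2 libraries were again the lowest for both. The 10 µM libraries lay inside the DMSO range for Srsf3 and just above it for Srsf7.

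Srsf4, Srsf5 and Srsf6 encode closely related proteins with paired RNA recognition motifs. Srsf4 levels were 243, 242 and 233 RPM in DMSO (239 ± 5.41 RPM, n = 3), 246 and 245 RPM at 10 µM (245 ± 1.07 RPM, n = 2), 162 RPM at 20 µM and 194 RPM at 30 µM. Srsf5 levels were 673, 750.0 and 501 RPM in DMSO (641 ± 128 RPM, n = 3), 705 and 755 RPM at 10 µM (730.1 ± 35.5 RPM, n = 2), 444 RPM at 20 µM and 401 RPM at 30 µM. Srsf6 levels were 158, 173 and 128 RPM in DMSO (153 ± 23.3 RPM, n = 3), 173 and 191 RPM at 10 µM (182 ± 12.7 RPM, n = 2), 127 RPM at 20 µM and 94.7 RPM at 30 µM. Srsf4, the longest member, was the one of these 3 in which DMSO replicate 3 was close to the other DMSO libraries and the 20 µM and 30 µM libraries were apart from it.

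Srsf9, a relative of Srsf1, was the least abundant member. Its levels were 10.2, 10.6 and 8.52 RPM in DMSO (9.80 ± 1.12 RPM, n = 3), 10.8 and 10.0 RPM at 10 µM (10.4 ± 0.530 RPM, n = 2), 9.78 RPM at 20 µM and 9.07 RPM at 30 µM. The 20 µM value rested on 91 read pairs, so that small differences were not detectable for this gene at this depth.

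Srsf10 encodes a protein that represses splicing when it is dephosphorylated, and Srsf11 encodes a more distant member with a role in microexon splicing. Srsf10 levels were 317, 330 and 315 RPM in DMSO (321 ± 7.95 RPM, n = 3), 368 and 321 RPM at 10 µM (345 ± 33.3 RPM, n = 2), 284 RPM at 20 µM and 281 RPM at 30 µM. Srsf11 levels were 174, 200.5 and 264 RPM in DMSO (213 ± 46.1 RPM, n = 3), 162 and 186 RPM at 10 µM (174 ± 17.1 RPM, n = 2), 268 RPM at 20 µM and 243 RPM at 30 µM. Srsf11 alone had its high values in DMSO replicate 3, 20 µM and 30 µM.

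At 10 µM, the dose with replicates, no member passed the test against DMSO. limma on log2(RPM + 1), with Benjamini-Hochberg adjustment over all genes, called 0 of 13599 genes (0%), with 212 at an unadjusted p under 0.05. edgeR called 0 and DESeq2 1, and neither called a member. The differences on the log2 scale ran from -0.27 (SE 0.20) for Srsf11 to 0.60 (SE 0.33) for Srsf1, with adjusted p between 0.811 and 0.985. The members' median was 0.15 and that of all tested genes 0.09. Without DMSO replicate 3 these medians were 0.06 and 0.03, and the differences fell to 0.27 for Srsf1, 0.11 for Srsf2 and 0.17 for Srsf7, from 0.60, 0.44 and 0.43. Both 10 µM libraries lay above all 3 DMSO libraries for 2 members, Srsf4 and Srsf7, as for 16.6% of tested genes, and below them for 0 members, against 8.74%.

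A fit that pairs the libraries by replicate (the replicate block) leaves out DMSO replicate 3, which has no partner, and in it 1 member rose. Srsf1 was higher at 10 µM by 0.27 on the log2 scale (SE 0.06, limma adjusted p = 0.00105), with 494 against 392 RPM in the first pair and 575 against 499.9 RPM in the other. The DMSO libraries of the pairs differed from each other by 0.35, more than that, and the 10 µM value of the first pair was below the DMSO value of the other. This fit called 561 genes higher (4.13%) and 459 lower (3.38%), and 0 members lower. It has a single residual degree of freedom per gene and takes its spread mostly from all genes together. edgeR with the block also called Srsf1 (adjusted p = 0.00134), but limma with TMM factors and the block did not (0.24, adjusted p = 0.264). Both pairs were above 0 for Srsf7 (0.13 and 0.21; blocked difference 0.17, limma adjusted p = 0.0841) and for Srsf6 (0.13 and 0.14; 0.14, limma adjusted p = 0.236). Both were below 0 for Srsf3 (-0.16 and -0.04) and for Srsf11 (-0.10 and -0.11), at limma adjusted p of 0.411 and 0.390. The pairs disagreed in sign for Srsf2 (-0.10 and 0.32), Srsf9 (0.07 and -0.08) and Srsf10 (0.21 and -0.04), and for Srsf4 (0.02 in each) and Srsf5 (0.07 and 0.01) they were near 0.

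Over all 7 libraries the slope with dose was below 0 for 9 of the 10 members, with Srsf9 at 0.01 under TMM factors or DESeq2, and 0 passed the test. Slopes of log2(RPM + 1) per 10 µM ran from -0.24 (SE 0.15) for Srsf2 to -0.02 (SE 0.08) for Srsf9, with 0.10 (SE 0.09) for Srsf11. The median was -0.17 for the members and -0.04 for all tested genes. The share of all tested genes with a slope below 0 was not counted. The 10 µM libraries lie at the mean dose and carry no weight in these slopes, so leaving out either changed none. The slopes thus set the DMSO libraries against the single libraries at the higher doses. They show no gradation through the dose with replicates. limma called 0 of 13599 genes (0%), with 1174 at an unadjusted p under 0.05, and the members' adjusted p lay between 0.508 and 0.886. edgeR called 0 genes, with 1110 at an unadjusted p under 0.05, and DESeq2 called 129, with 0 members among them. Srsf5 had the lowest p of the members (slope -0.23, SE 0.09, limma adjusted p = 0.508).

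When the library set was included in the fit, the slopes of most members moved towards 0. This fit called 27 of 13599 genes (0.199%) and 0 members, whose adjusted p lay between 0.669 and 0.992 with limma. Slopes changed sign for Srsf1 (0.04, SE 0.08), Srsf2 (0.01, SE 0.07), Srsf7 (0.01, SE 0.05), Srsf9 (0.03, SE 0.07) and Srsf11 (-0.04, SE 0.05). They stayed below 0 for Srsf4 (-0.09, SE 0.06), Srsf5 (-0.08, SE 0.05), Srsf6 (-0.08, SE 0.06), Srsf3 (-0.06, SE 0.05) and Srsf10 (-0.03, SE 0.05). The members' median was -0.04 and that of all tested genes 0.01.

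Leaving out DMSO replicate 3 had the opposite effect. The trend then called 5 members lower with dose, Srsf1 (-0.39, limma adjusted p = 0.0404), Srsf2 (-0.38, 0.0315), Srsf5 (-0.31, 0.0311), Srsf6 (-0.27, 0.0432) and Srsf7 (-0.34, 0.0465), among 1537 genes called lower (11.3%). Without that library the DMSO and 10 µM libraries are all of set 1 and those at higher doses are all of set 2, so dose and library set cannot be told apart.

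**Figure D2:**
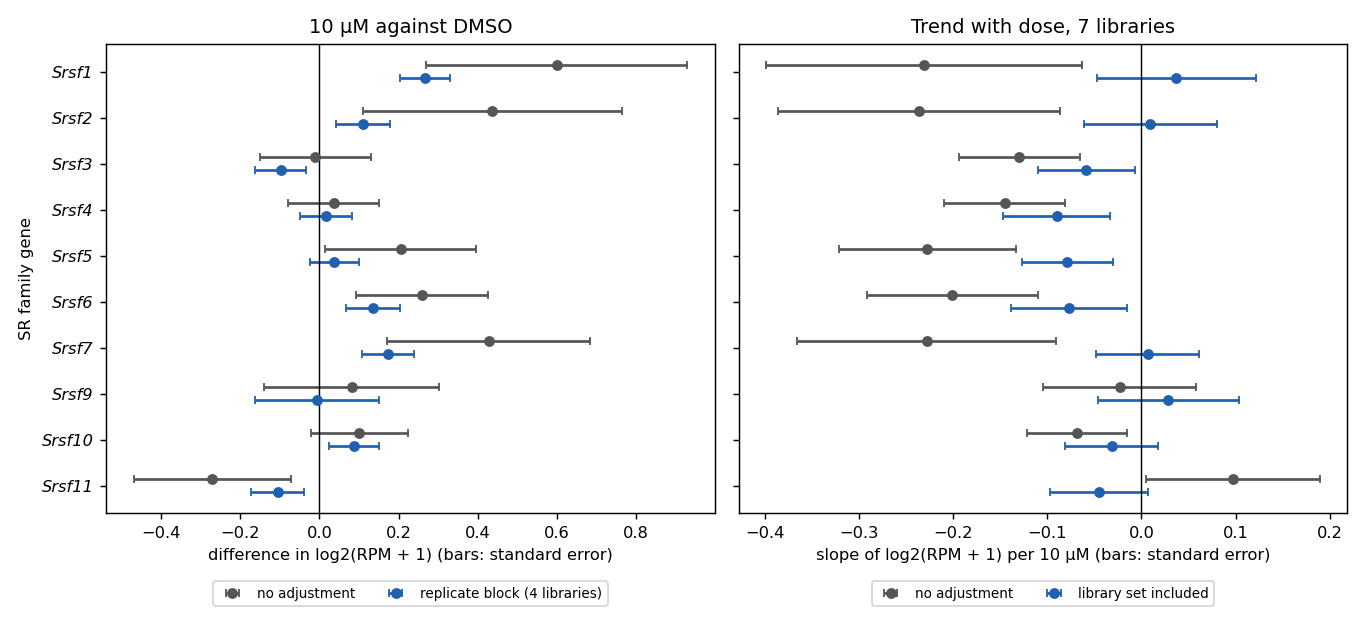
Estimates for the 10 members (points) with their standard errors (bars), as the difference in log2(RPM + 1) between 10 µM and DMSO (left) and as the slope of log2(RPM + 1) per 10 µM over 7 libraries (right), without adjustment (grey) or with the replicate block or the library set (blue). Adjusted estimates lie closer to 0 for most members, and Srsf1 at 10 µM with the block (0.27, SE 0.06) is the one that passed the test.

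The single libraries at 20 µM and 30 µM have no replicate, so they were set beside the DMSO library of set 2, replicate 3, without a test. Both comparisons share that control. Both were lower than DMSO replicate 3 for 6 members (Srsf3, Srsf4, Srsf5, Srsf6, Srsf7 and Srsf10), as for 34.1% of tested genes. For Srsf6 the 20 µM difference was -0.01, and it turned positive with TMM factors (0.02) or with the 5 abundant genes taken out of the totals (0.11), which leaves 5 members. Srsf4 had the lowest ratio of the members at 20 µM, 0.696-fold (95% counting interval 0.657 to 0.737), and was 0.832-fold at 30 µM (0.799 to 0.866). In RPM it was the 1 member past a drop of 0.5 on the log2 scale at 20 µM, at -0.52, as were 10.7% of tested genes, and 0 members were past it at 30 µM (3.85%). With TMM factors (-0.48) or the 5 abundant genes taken out (-0.40) Srsf4 did not reach 0.5, and 0 members did. Such intervals cover counting error only.

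The other members of that comparison split by dose. Srsf1 was 1.39-fold DMSO replicate 3 at 20 µM (1.32 to 1.45) but 0.894-fold at 30 µM (0.859 to 0.931), and Srsf2 was 1.25-fold (1.15 to 1.36) and 0.918-fold (0.858 to 0.983). Srsf6 was 0.992-fold at 20 µM (0.927 to 1.06) and 0.742-fold at 30 µM (0.702 to 0.785), the lowest ratio of the members at that dose. Srsf5 was 0.887-fold (0.856 to 0.919) and 0.801-fold (0.779 to 0.823). Srsf3 was 0.797-fold (0.754 to 0.842) and 0.937-fold (0.901 to 0.975), and Srsf7 was 0.876-fold (0.815 to 0.943) and 0.962-fold (0.912 to 1.02). Srsf3, Srsf4 and Srsf7 were thus lower at 20 µM than at 30 µM, and the other 7 members were lower at 30 µM. These ratios are in RPM. The share of all tested genes with either order was not counted, and their median log2 differences were -0.10 at 20 µM and 0.04 at 30 µM. Srsf10 was nearly tied (0.903-fold and 0.893-fold). So was Srsf7 with the 5 abundant genes taken out of the totals (-0.07 and -0.06 on the log2 scale). Taking the 5 abundant genes out of the totals raised every member's 20 µM difference. On the log2 scale it moved from -0.19 to -0.07 for Srsf7, from -0.17 to -0.05 for Srsf5 and from 0.47 to 0.59 for Srsf1.

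The intervals of Srsf9 included a ratio of 1 at both doses (0.893 to 1.48 at 20 µM and 0.874 to 1.30 at 30 µM). Those of Srsf10 did not in RPM (0.903-fold, 0.863 to 0.944, and 0.893-fold, 0.863 to 0.924). With the 5 abundant genes taken out of the totals, its log2 difference at 20 µM moved from -0.15 to -0.03. Srsf11 was 1.01-fold at 20 µM (0.968 to 1.06) and 0.921-fold at 30 µM (0.888 to 0.956). The same change of totals moved its log2 difference at 20 µM from 0.02 to 0.14. The 30 µM library had the lowest value of all 7 for 5 members (Srsf1, Srsf2, Srsf5, Srsf6 and Srsf10), as for 11.0% of tested genes. The medians of the members were -0.08 at 20 µM and -0.14 at 30 µM on the log2 scale, beside -0.10 and 0.04 for all tested genes.

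Among the comparisons made here between DMSO libraries, within pairs and against DMSO replicate 3, the largest difference of any member was between DMSO libraries. DMSO replicate 3 was lower than the mean of DMSO replicates 1 and 2 by 1.00 on the log2 scale for Srsf1, by 0.98 for Srsf2, by 0.76 for Srsf7 and by 0.50 for Srsf5, which are the 4 members past 0.5, as for 29.9% of tested genes. The drop was 0.37 for Srsf6 and 0.26 for both Srsf3 and Srsf9. It was 0.06 for Srsf4 and 0.04 for Srsf10, and Srsf11 was higher by 0.50. The members' median was -0.32 and that of all tested genes -0.18. TMM factors moved the median of all genes to -0.01. With them the drop was 0.82 for Srsf1, 0.81 for Srsf2, 0.59 for Srsf7, 0.33 for Srsf5, 0.20 for Srsf6, 0.10 for Srsf9 and 0.09 for Srsf3. Srsf4 and Srsf10 were then higher by 0.12 and 0.14, and Srsf11 by 0.67. DMSO replicates 1 and 2 differed from each other by at most 0.35, in Srsf1.

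**Figure D3:**
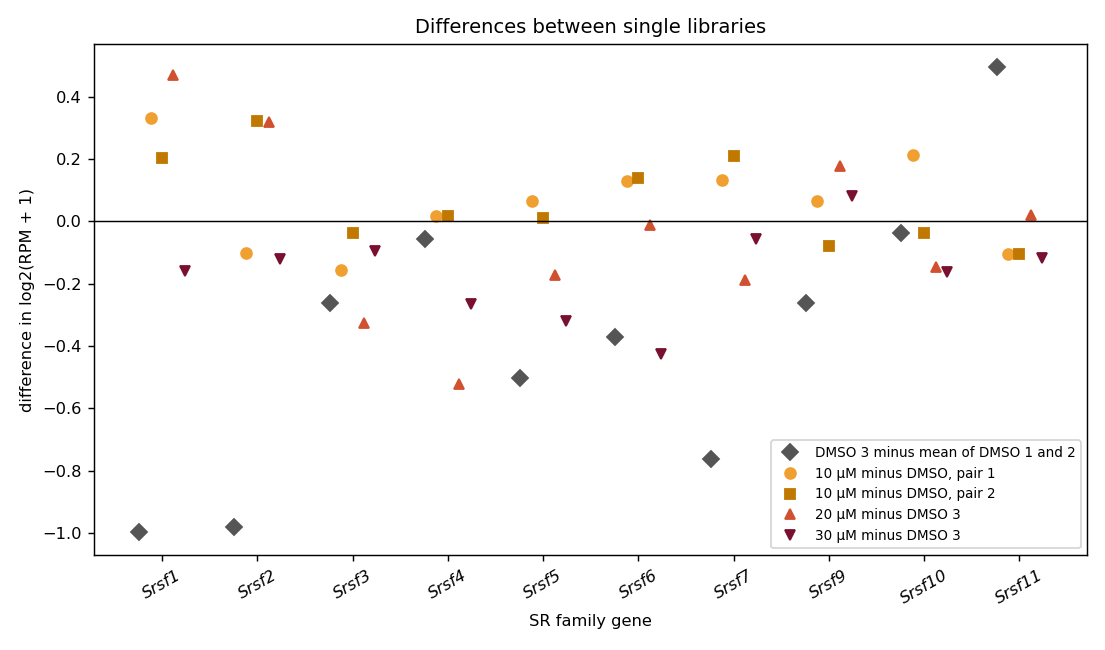
Differences in log2(RPM + 1) between single libraries (vertical axis) for each member (horizontal axis): DMSO replicate 3 minus the mean of DMSO replicates 1 and 2 (grey diamonds), 10 µM minus DMSO in each pair (orange), and 20 µM or 30 µM minus DMSO replicate 3 (red and dark red triangles). In RPM the difference between DMSO libraries exceeds in size each of those between inhibitor and DMSO for Srsf1, Srsf2, Srsf7 and Srsf11, and for Srsf5 and Srsf9 it does so in RPM but not with TMM factors.

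Across the libraries of both sets, all 3 set 2 libraries were below all 4 set 1 libraries for 9 members in RPM, as for 39.8% of tested genes, but for 5 with TMM factors (30.1% of tested genes), where Srsf3, Srsf4, Srsf9 and Srsf10 overlapped. The same libraries were all above set 1 for 1 member, Srsf11, under both scalings, as for 18.7% of tested genes in RPM and 28.3% with TMM factors. Taking the 5 abundant genes out of the totals left 7 members below (37.6% of tested genes) and 1 above (21.5%). The summed RNA level of the family was 2598, 2846, 2771 and 2989 RPM in the 4 libraries of set 1 (DMSO replicates 1 and 2, then 10 µM replicates 1 and 2). In set 2 it was 2098 RPM in DMSO replicate 3, 1987 RPM at 20 µM and 1823 RPM at 30 µM. In bulk RNA, a change in how many cells carry an RNA and a change in RNA per cell cannot be told apart.

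Gene length went with the difference between the DMSO libraries. Short members were lower in DMSO replicate 3 and long ones were close to the other DMSO libraries or above them, with a Spearman correlation of 0.733 over the 10 members between the span and that difference. Over all 13599 tested genes it was 0.319. Genes of a library share its depth and composition and are not independent. Srsf1, at 6.39 kb, and Srsf7, at 7.23 kb, were lower than members of like length such as Srsf9 (5.90 kb) and Srsf6 (5.61 kb). The correlation over the members was -0.491 for 20 µM and 0.127 for 30 µM against DMSO replicate 3. Over all tested genes these were -0.137 and 0.0919. For 10 µM minus DMSO, the correlation over the members was -0.139 in the first pair and -0.455 in the other. Over all tested genes it was -0.0255 and -0.451 in those pairs, the latter larger in size than the 0.319 between DMSO libraries. The part of gene length in the members' values was not tested.

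**Figure D4:**
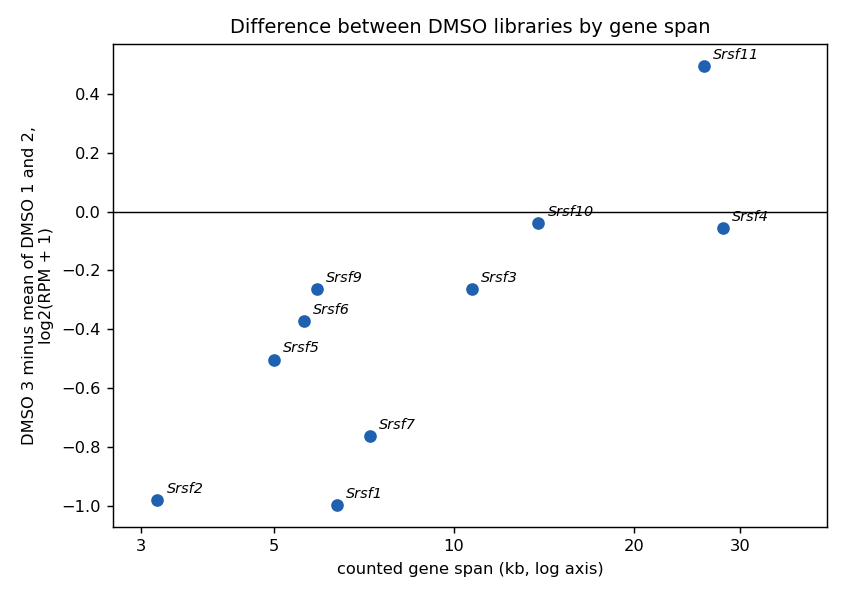
Counted gene span in kb (horizontal log axis) and the difference in log2(RPM + 1) between DMSO replicate 3 and the mean of DMSO replicates 1 and 2 (vertical axis), with 1 point per member. Points run from Srsf2 (3.20 kb, -0.98) at the lower left to Srsf11 (26.1 kb, 0.50) at the upper right.

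Members resembled each other in pairs over the 7 libraries, given as Pearson's r of log2(RPM + 1) and as a description, since all share the same libraries and their sets. Srsf1 and Srsf2 were each other's closest member (r = 0.97), as were Srsf3 and Srsf4 (0.93) and Srsf5 and Srsf7 (0.97). Srsf6 (0.96) and Srsf10 (0.80) were closest to Srsf5, and Srsf9 to Srsf1 (0.87). Srsf11 had a negative r with all 9 others, from -0.91 with Srsf7 to -0.73 with Srsf4. The genes outside the family whose pattern was most like the family mean were Galnt3 (r = 0.999), Eif6 (0.997), Ndufv1 (0.996), Tmem167b (0.996) and Hccs (0.995), and 18.3% of 10728 genes averaging 5 RPM or more had an r above 0.9. Such values were thus common in these libraries.

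Genes that work with the SR proteins were counted in the same fits. Without a block or a set term, none of the lists named here had a gene past the test at 10 µM or for the dose trend, and none had one with the library set included. The former fits called 0% of all tested genes and the latter 0.199%. An absence of calls in lists of this size therefore says little about their genes. Of 20 SR-related proteins, which carry such a domain without being classical members, 20 were tested. Their median difference at 10 µM was -0.08. Tra2a, a regulator that binds purine-rich enhancers, was the 1 gene of the 20 that fell with the replicate block, as did 3.38% of tested genes. It fell by 0.24 (limma adjusted p = 0.00475). The block with TMM factors was not looked at for the genes of these lists. The 3 of this list with the lowest p in the set-adjusted trend were Tra2a (slope -0.10, limma adjusted p = 0.587), Scaf4 (-0.10, 0.660), which limits early polyadenylation, and Luc7l2 (-0.12, 0.685), a U1 component.

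Of 11 SR kinases and import factors 10 were tested, 0 of which passed in any of these fits (7.5% of all tested genes with the block). The list's median difference at 10 µM was 0.11 (0.05 with the block). The lowest p values in the set-adjusted trend were those of the kinases Dyrk1a (-0.07, limma adjusted p = 0.764), Prpf4b (0.04, 0.886) and Clk1 (-0.05, 0.897). The hnRNP proteins, which often oppose SR proteins at the same exons, had 26 genes tested and a median of -0.06 at 10 µM. Hnrnpc, which binds uridine tracts, was the 1 of the 26 that fell with the block (3.38% of tested genes), by 0.19 (limma adjusted p = 0.0400). In the set-adjusted trend Hnrnpdl (-0.08, limma adjusted p = 0.602), Ptbp3 (0.07, 0.711) and Hnrnpc (-0.06, 0.759) came first.

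Factors that SR proteins recruit or that remove their poison-exon transcripts were likewise without a call, the blocked fit included. That fit called 7.5% of all tested genes, so lists this short can hold no call without differing from the rest. Among 19 U1 and U2 recognition factors the set-adjusted slopes with the lowest p were those of Sf3b4 (0.10, limma adjusted p = 0.851), Sf3a3 (0.06, 0.893) and Sf1 (-0.04, 0.898), with a list median of 0.07 at 10 µM. Among 14 NMD factors they were those of Magoh (0.16, 0.649), a core part of the exon junction complex, Upf1 (-0.06, 0.856), the central helicase of the pathway, and Smg8 (0.10, 0.858), with a list median of -0.07 at 10 µM. Of 16 m6A writers, readers and erasers 15 were tested, with a list median of 0.00 at 10 µM. Wtap (-0.07, limma adjusted p = 0.752), Zc3h13 (0.06, 0.850) and Cbll1 (0.06, 0.851), all parts of the writer complex, came first. Mettl3 differed by 0.17 at 10 µM (SE 0.19, limma adjusted p = 0.814) and by 0.04 with the block (0.859).

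In the marker lists the blocked fit, which called 7.5% of all tested genes, called 1 gene and 0 of the 9 mES markers tested. That gene was Fn1, which fell by 0.26 (limma adjusted p = 0.00157). Of the feeder markers 6 of 14 reached the filter. In the set-adjusted trend Klf4 (0.16, limma adjusted p = 0.475), Zfp42 (-0.07, 0.746) and Utf1 (0.16, 0.805) had the lowest p of the mES markers and Fn1 (-0.17, 0.270), Loxl1 (0.13, 0.805) and Thbs1 (0.09, 0.892) of the feeder markers. The median of the feeder markers at 10 µM was 0.10 and that of the mES markers -0.02, and with the block they were -0.17 and -0.07. Fn1, which mES cells can also express, moved in the direction opposite to Srsf1 at 10 µM and its part in that result was not tested.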

How the data were processed

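ChrRNA-seq libraries from DMSO-treated (3) and STM2457-treated (4) C7H8 cells were used. The authors discarded rRNA (bowtie2), mapped reads to N-masked mm10 (STAR, unique hits), counted read pairs by strand over whole genes (featureCounts) and deposited the values as RPM. No other counted gene overlaps a member on its strand. Table starts were read as 0-based: 35.1% of 21222 were 1 below the GENCODE start and 3.58% equal to it. The authors' allelic ratios, of X-linked genes only, were not used.

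Whole read pairs were recovered from the RPM steps (100% of values whole within 0.1 read), which gave depths of 9300549 to 28030180. Genes averaging 1 RPM or more were tested with limma 3.58.1 (eBayes with trend, two-sided) on log2(RPM + 1), where changes of low genes are understated, at a Benjamini-Hochberg adjusted p of 0.05. The recovered reads were also tested in R 4.3.3 with DESeq2 1.42.0 and edgeR 4.0.16 (quasi-likelihood). Other steps used Python 3.11.15, pandas 2.3.3, numpy 2.4.6 and matplotlib 3.10.9. The limma and edgeR fits without a block or a set term were first run on simulated counts. Those counts had the same spread for all genes and no library sets or pairs, so they are no test of the other fits. Replicates differed by more than sampling noise (mean chi-square per gene of at least 14.4). Replicate numbers 1 and 2 were used as pairs, since the study states that the wells of a replicate came from 1 batch of cells, and same-numbered libraries deviated together (correlation 0.621). Library sets are the sign of principal component 1.

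Members and gene lists were chosen with earlier results of these data known. Named genes are the 10 members, Mettl3, the 5 genes most like the family mean, and per list the 3 with the lowest p in the set-adjusted trend. Genes that passed the blocked test in a list, single markers that differed between sets, and the 5 abundant genes were named after their values were seen. Srpk3 was under the filter and Virma was not found under that symbol. Promoters are from RefSeq (all 10 matched). The RefSeq start nearest the counted one was used, which lay 33 bases away for Srsf11, 5 for Srsf5 and 0 for the others.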

Additional observations from a re-analysis of the deposited data

How the results depend on the processing

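Of 280 alternative estimates for the members, 253 kept their direction and their side of the threshold, 6 passed it and 21 changed sign. Of 40 more, chosen after seeing the data, these numbers were 28, 1 and 11. No estimate that changed sign was called. The former came from another pseudocount (0.1), other filters, TMM factors, the 5 abundant genes taken out of the totals, edgeR, DESeq2, each replicate left out, the replicate block, the library set and, for the dose trend, the 20 µM library left out. Among these, the other filters changed no estimate, and leaving out a 10 µM library changed no slope. Such alternatives could not change a sign, and only their p-values could move. The library set or the block combined with edgeR or TMM factors, and the other scalings of the high-dose comparison (5 or 6 members) and of the comparison between library sets (5 to 9 members below), were added after seeing the data. The cause of these changes was not tested.

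At 10 µM, genes called numbered 1 with DESeq2, 1020 with the replicate block, 1026 with the block in edgeR and 841 with the block and TMM factors, and 0 to 1 with a library left out (the 1 without DMSO replicate 3). Members called were 1, Srsf1, with the block in limma or edgeR. With a library left out, Srsf3 differed by -0.0973 to 0.0448 and Srsf9 by -0.0061 to 0.138. Srsf4 was -0.0616 with DESeq2, -0.0566 with TMM factors and -0.0084 with the block and TMM factors. Srsf9 was -0.0066 with DESeq2, -0.0061 with the block or without DMSO replicate 3, -0.0079 with the block in edgeR, -0.0297 with the block and TMM factors and -0.0025 with TMM factors.

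For the dose trend, genes called numbered 129 with DESeq2, 27 with the library set, 38 with the set in edgeR, 68 with the set and TMM factors, 58 with the replicate block, and 0 to 2485 with a library left out. Members called ran from 0 to 5, the 5 without DMSO replicate 3. Srsf1 slopes were 0.0370 with the set or the block, 0.0470 with the set in edgeR and 0.0225 with the set and TMM factors. Srsf2 gave 0.0095 with the set or the block and 0.0159 with the set in edgeR, and Srsf7 gave 0.0065 and 0.0070. Srsf9 gave 0.0129 with DESeq2, 0.0111 with TMM factors, 0.0285 with the set or the block, 0.0305 with the set in edgeR and 0.0156 with the set and TMM factors. Srsf11 gave -0.0450 with the set or the block, -0.0453 with the set in edgeR and -0.0595 with the set and TMM factors.

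Depth was lowest at 20 µM, where 1 read pair was worth 0.108 RPM, which limits Srsf9 alone among the members. The 20 µM and 30 µM doses have no replicate, and DMSO replicate 3 is the one DMSO library of their set.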
